A study of Mus musculus with 4 samples.

Results

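Actg2 encodes gamma smooth muscle actin, the actin isoform best known from the muscle of the gut, bladder and uterus, and Lgals1 encodes galectin-1, a small secreted protein that binds beta-galactosides on matrix and cell-surface glycoproteins. Smooth muscle cells of the mouse aorta that were high in both genes are described here. In each of 4 single-cell libraries, barcodes were kept if they had 3000 or more UMIs and 500 or more genes, with no more than 10% of the UMIs from the mitochondrial genome. Each kept cell was given the sum of its percentile ranks for Actg2 and for Lgals1 within its own library, both measured as UMIs per 10000. The members are the top 15% of that summed rank, 1957 of 13049 kept cells and of 14696 deposited barcodes, and the bottom 15%, also 1957 cells, served for comparison. KO 1 gave 624 of 4162 kept cells, KO 2 gave 512 of 3414, WT 1 gave 347 of 2316 and WT 2 gave 474 of 3157. Because these 2 genes chose the members, their own levels are a description and were not tested between members and bottom cells.

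The KO libraries came from Tgfbr1/2iSMCKO mice, which carry floxed Tgfbr1 (Tgfbr1f/f) and floxed Tgfbr2 (Tgfbr2f/f) beside Myh11-CreERT2 and the mT/mG reporter, and in which tamoxifen-activated Cre was to remove both TGF-beta receptors from smooth muscle, and the WT libraries came from GFPiSMC mice (Myh11-CreERT2.mT/mG). There were 2 libraries per genotype, from mice on the C57BL/6J background aged 12 weeks. All mice, WT included, carried the Myh11-driven Cre and mT/mG, a membrane reporter that switches from tdTomato to eGFP when Cre recombines it, and all received tamoxifen for 5 days, at 1 or 2 mg per day and at 4 or 11 weeks of age. Which course each library had is not given in the sources used here. GFP-positive single cells were sorted from the ascending aorta and the aortic arch, a gate meant to leave out cells that Myh11-CreERT2 had not recombined. Kept cells with a tdTomato UMI nonetheless numbered 119, 60, 1 and 2 in KO 1, KO 2, WT 1 and WT 2. Whether Cre had recombined the reporter in those cells was not tested. The labels speak of individual aortic segments without the number of mice per library, so p-values reach no further than these libraries. Between KO and WT they measure the spread between libraries. Between members and bottom cells the library was a block, so p-values measure how evenly the change repeated across libraries. That fit had 2 residual degrees of freedom per gene and a median of 32.4 prior degrees of freedom. Its p-values thus rest largely on spread pooled over genes.

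Vascular smooth muscle contracts through filaments of actin and smooth muscle myosin. Its main actin is Acta2, and Actg2 is a minor isoform in large arteries. Transcription of both actin genes is known to depend on serum response factor and its partners myocardin and the MRTFs, which sense the pool of unpolymerised actin. TGF-beta signalling is known to raise contractile and elastic fibre genes in these cells, and galectin-1 is known as a modifier of cell adhesion to laminin and fibronectin.

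Summed over cells, the members held 8939591, 7358482, 5488162 and 7734663 UMIs in KO 1, KO 2, WT 1 and WT 2, and the bottom cells held 8490712, 7170995, 4797542 and 6793650. The median cell had 14123 to 16352 UMIs among members and 13510 to 14437 among bottom cells. Members detected slightly fewer genes when every cell was thinned to 3000 UMIs, with medians of 1380 to 1403 against 1453 to 1469.5 in bottom cells, and their median mitochondrial share was lower in every library, 3.50% to 4.26% against 3.94% to 4.88%. Libraries shared 23 barcodes in all. Libraries of 1 genotype differed by more than counting error, with chi-square per degree of freedom of 3.77 to 4.26. Levels below are in CPM, counts of each summed set scaled to a common library size with TMM factors, which lay between 0.93 and 1.07.

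Actg2 lies on chromosome 6, from 83512905 to 83536265 on the minus strand of GRCm38, and Lgals1 lies on chromosome 15, from 78926725 to 78930465 on the plus strand. Actg2 stood at 1824 and 1711 CPM in the members of KO 1 and KO 2, against 48.8 and 57.3 CPM in their bottom cells. In WT 1 and WT 2, Actg2 stood at 969 and 1075 CPM in members, against 28.4 and 38.7 CPM in bottom cells. The KO members were above the WT members, and the bottom cells of each library were near the floor. Lgals1 had 4282 and 3662 CPM in KO members and 1378 and 1163 CPM in KO bottom cells. It had 3538 and 3574 CPM in WT members and 1224 and 1200.0 CPM in WT bottom cells. The gap in Lgals1 was thus the smaller one, since every group of bottom cells still carried it. The ranking and the measuring used the same UMIs, so part of each gap is built in. When cells were ranked on a random 50% of their UMIs and measured on the remaining 50%, the ratio of members over bottom cells was 15.7, 15.1, 12.1 and 10.9 for Actg2 and 2.28, 2.25, 2.08 and 2.07 for Lgals1 in KO 1, KO 2, WT 1 and WT 2.

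**Figure D1:**
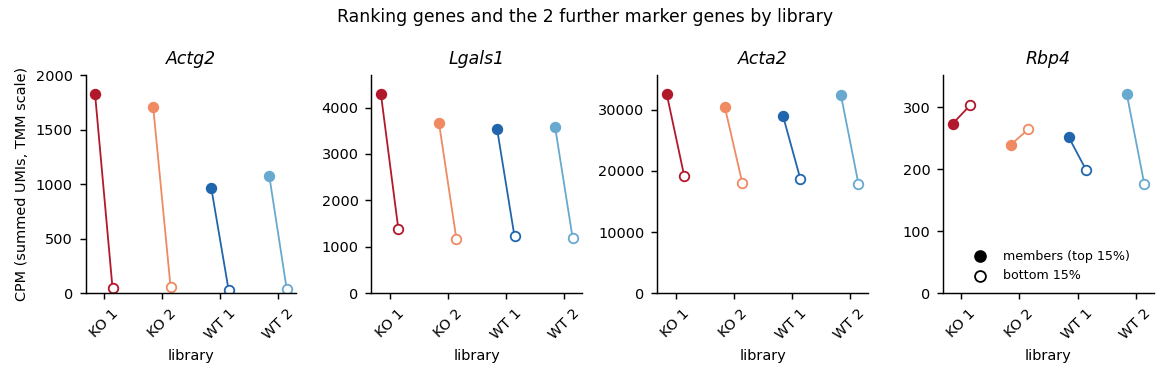
Levels in CPM (summed UMIs on the TMM scale, vertical axis from 0) of Actg2, Lgals1, Acta2 and Rbp4 in the members (filled points) and the bottom 15% (open points) of each library, with a line joining both sets of 1 library. Actg2, Lgals1 and Acta2 are higher in members in all 4 libraries, while Rbp4 is lower in members of KO 1 and KO 2 and higher in members of WT 1 and WT 2.

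The limit of the top 15% fell in a continuous range. The 25 cells just inside it had a median of 9.73 Actg2 and 34.1 Lgals1 UMIs per 10000 in KO 1, and the 25 cells just outside had 11.8 and 30.8. In WT 1 the medians were 5.45 and 27.6 inside and 6.27 and 25.1 outside. The cells on both sides of the limit had similar levels of both genes.

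Measured levels of the ranking genes were only weakly related from cell to cell. Actg2 had a median of 4 to 7 UMIs per kept cell. Counts this low weaken a correlation, so a weak one cannot show that the 2 genes varied independently. Spearman's rho between Actg2 and Lgals1 over cells was 0.127 and 0.0884 in KO 1 and KO 2 and 0.112 and 0.118 in WT 1 and WT 2, a description over 2316 to 4162 cells that share a library and its range of depths. Of the 15% of cells highest in Actg2, 22.1% and 18.3% in KO 1 and KO 2 and 23.0% and 21.3% in WT 1 and WT 2 were also among the 15% highest in Lgals1. Ranking by Actg2 alone kept 53.3% to 55.3% of the members, and ranking by Lgals1 alone kept 48.0% to 52.7%. Thinning every cell to 3000 UMIs before ranking kept 63.5% to 69.1% of the members. The set is thus a range of a summed rank. Both genes could be counted cleanly from their 3′ ends: 0.872% of the 31-base words in the last 500 bases of Actg2 transcripts occurred in another actin, and none of those of Acta2 or Lgals1 occurred in another gene of its family.

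Among the further marker genes given for these cells, Acta2, the main vascular smooth muscle actin, was higher in the members of every library. Acta2 had 32479.8 and 30380.1 CPM in KO members and 19155 and 18023 CPM in KO bottom cells. In WT members it had 29012 and 32322 CPM, against 18670.0 and 17886 CPM in WT bottom cells. The groups did not overlap, and the log2 change was 0.75 ± 0.04 (SE, adjusted p = 1.63e-16, edgeR's quasi-likelihood test with Benjamini-Hochberg adjustment, as for every adjusted p below). Rbp4, the carrier of retinol in blood, went against its place among the markers in KO. Rbp4 stood at 273 and 239 CPM in KO members and 303 and 264 CPM in KO bottom cells. In WT it stood at 251 and 321 CPM in members and 198 and 176 CPM in bottom cells. Members were lower in both KO libraries and higher in both WT libraries, with log2 changes of -0.15 ± 0.07 in KO and 0.62 ± 0.07 in WT, and the averaged rise of 0.24 was 0.10 (adjusted p = 0.065) without WT 2.

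Smooth muscle identity was present throughout. Myh11, the smooth muscle myosin heavy chain, had 6629 and 6509 CPM in KO members against 7170.3 and 6754 CPM in KO bottom cells. It had 4632 and 4679.9 CPM in WT members against 5664 and 5595 CPM in WT bottom cells. Myh11 was thus slightly lower in members, with a log2 change of -0.18 ± 0.04 (adjusted p = 0.000132) that missed the threshold without KO 1 (-0.16, adjusted p = 0.067). The 10 smooth muscle markers summed to 65862 to 81509 CPM in members and 47526 to 55700.0 CPM in bottom cells, and none was at 0. The reporter eGFP rose in members by 0.55 ± 0.04 on the log2 scale (adjusted p = 3.32e-14), with 9920 and 9380 CPM in KO members against 6657 and 6564 CPM in KO bottom cells.

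Markers of other cell types were lower or higher in members depending on the list. Of 10 tested fibroblast markers 2 were higher and 8 lower in members, and of 9 tested endothelial markers none was higher and 5 were lower. Summed fibroblast markers spanned 612 to 661 CPM in members and 463 to 655 CPM in bottom cells, most of it from Gsn, an actin-severing protein that smooth muscle also expresses. Ly6a was at 0 in the members of 3 libraries and at 0.119 CPM in KO 1. The endothelial markers summed to 151 to 169.6 CPM in members and 165 to 248 CPM in bottom cells, and Cdh5 and Tek were at 0 in the members of all 4 libraries. Macrophage markers summed to at most 3.09 CPM in members and 3.22 CPM in bottom cells. The summed mesothelial and epicardial markers were higher in members of every library, at 51.2 to 71.7 CPM against 38.2 to 59.6 CPM in bottom cells. Of these 8 markers 6 were at 0 in the members of each library and 5 to 7 in bottom cells, so the sums rest on few genes. Only 1 passed the filter, and it was called higher. Cells carrying at least 3 different fibroblast markers numbered 3, 2, 0 and 0 among members and 19, 18, 6 and 7 among bottom cells of KO 1, KO 2, WT 1 and WT 2. Cells carrying at least 3 endothelial markers numbered 0 among members, and 6, 4, 0 and 0 among bottom cells. Cells with a tdTomato UMI numbered 14, 9, 0 and 1 among members and 21, 17, 0 and 0 among bottom cells. In KO 6 of the 9 tested endothelial markers were lower (median -1.63), and in WT 1 was (median -0.02). Cells carrying 3 or more markers of another type were also removed and the rest ranked again. Then 3 of 6 tested endothelial markers were lower (median -0.04, from -1.18). Of 8 tested fibroblast markers, 4 were lower and 2 higher (median -0.62, from -1.81). Most of these markers also chose the cells removed, so part of that shift is built in. Further results of such removals are given with the genes that differed between the genotypes.

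Members differed from bottom cells in 5429 of 12272 tested genes (44.2%), of which 2824 were higher (23%) and 2605 were lower (21.2%). With TMM factors, every list count between members and bottom cells below is to be read beside these shares of all tested genes. Most of the differences were small: 74 genes rose and 162 fell at least 2-fold. The change went the same way in all 4 libraries for 91.0% of the called genes and for 51.4% of all tested genes. On plain library totals the median log2 change of all tested genes moved to -0.18 from -0.01 with TMM factors, and the calls split into 1439 higher and 4639 lower. When cells were ranked on 50% of their UMIs and measured on the rest, 3935 genes were called, and 68.6% of the calls were shared in the same direction. Genes that rose were short and genes that fell were long, with a median exonic length of 2732.5 bp for the higher genes, 7461 bp for the lower genes and 4386.5 bp for the rest in GENCODE M21, and a median span of 11.4, 59.6 and 22.7 kb. Whether that length pattern has a part in the gene results was not tested.

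**Figure D2:**
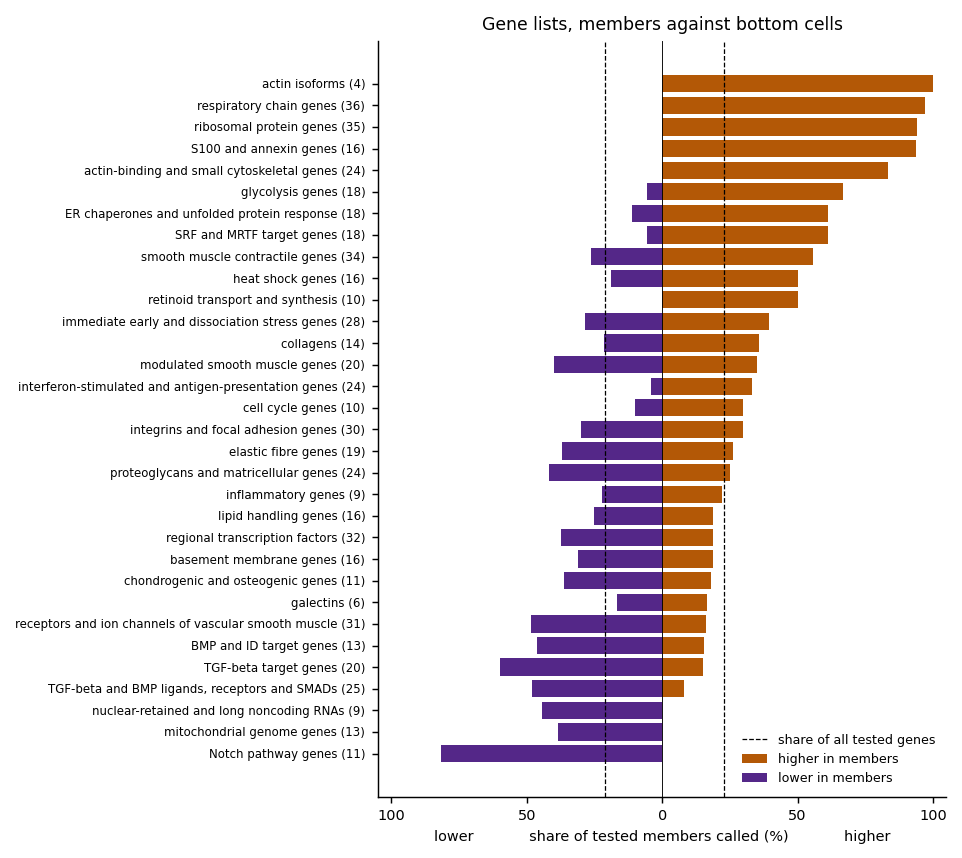
Share of the tested genes of each list called higher in members (orange, to the right) or lower in members (purple, to the left) against bottom cells, in percent of the tested genes whose number stands in brackets; dashed lines mark 23% and 21.2%, the shares of all tested genes. Respiratory chain, ribosomal protein, S100 and annexin, actin and actin-binding lists lie almost wholly to the right, and the Notch list lies wholly to the left.

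All 4 other actin isoforms that passed the filter rose in members, with a median log2 change of 0.52, beside 23% of all genes called higher. By Actg2 alone 2 of them were called higher, and by Lgals1 alone 3 were. Actb and Actg1, the cytoplasmic actins, rose by 0.28 ± 0.04 and 0.27 ± 0.04 (adjusted p = 1.36e-07 and 1.41e-07). Actc1, the cardiac actin, had 50.4 and 34.3 CPM in KO members, 1.16 and 3.61 CPM in WT members, 19 and 26.6 CPM in KO bottom cells and 0.604 and 0 CPM in WT bottom cells. Its averaged change rested on a few UMIs in WT, and without WT 2 it was 0.92 (adjusted p = 0.13). Genes for actin-binding and small cytoskeletal proteins followed: 20 of 24 rose and none fell (median 0.51).

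Contractile genes rose more often than they fell, though not on plain totals. Of 34 tested, 19 rose and 9 fell (median 0.18), beside 23% of all genes called higher and 21.2% called lower. On plain totals 12 rose and 14 fell (median 0.01), where of all 12272 tested genes 1439 rose and 4639 fell. Des, the intermediate filament protein desmin, had 369.5 and 262 CPM in KO members and 122 and 115 CPM in KO bottom cells. In WT it had 135 and 129 CPM in members and 84.9 and 95.7 CPM in bottom cells. Members were above bottom cells in each library. In WT 2, Des had 106 CPM (library totals) in the lowest of 10 equal steps of the summed rank, 159.9 CPM in the ninth and 91.8 CPM in the highest, so cells of the highest step alone were not above those of the lowest. Tpm2, a tropomyosin of the thin filament, rose by 0.64 ± 0.04 (adjusted p = 1.61e-15), with 11335 and 10098 CPM in KO members and 7033 and 6233 CPM in KO bottom cells. Mustn1, a nuclear protein of skeletal and smooth muscle, rose by 0.66 ± 0.04 (adjusted p = 1.5e-15), and Tagln, the actin-binding protein SM22, rose by 0.54 ± 0.04 (adjusted p = 2.38e-13). Pln, the inhibitor of the sarcoplasmic calcium pump, fell by 0.60 ± 0.08 on the log2 scale (adjusted p = 3.38e-07) and fell by 0.38 without WT 2.

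Targets of SRF and the MRTFs leaned the same way, with 11 of 18 higher and 1 lower (median 0.18), and with 8 higher and 4 lower on plain totals (median 0.02). Ankrd1, a nuclear ankyrin-repeat protein induced by mechanical load, had 29.1 and 34.1 CPM in KO members and 33.8 and 44.2 CPM in WT members. In bottom cells it had 10.4 and 13.4 CPM in KO and 8.45 and 14.3 CPM in WT. The sets did not overlap, and the log2 change was 1.58 ± 0.09 (adjusted p = 4.13e-16). Tagln2, an actin-binding relative of SM22, and Hspb1, a small heat shock protein that protects actin filaments, rose by 0.62 and 0.48.

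Of the visceral smooth muscle markers other than Actg2, 3 of 4 tested rose and none fell (median 0.21). Foxf1, a transcription factor of gut mesenchyme, rose by 0.58 ± 0.10 (adjusted p = 1.02e-05), with 32.6 and 32.4 CPM in KO members against 20.9 and 23.2 CPM in KO bottom cells and 16.8 and 19.9 CPM in WT members against 7.65 and 15.8 CPM in WT bottom cells. Kcnmb1, the beta subunit of the large-conductance potassium channel, and Smtn, smoothelin, rose by 0.25 and 0.17, and on plain totals only Foxf1 of these passed the threshold.

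Genes for small calcium-binding and membrane-binding proteins rose with Lgals1. Of 16 S100 and annexin genes, 15 rose and none fell (median 0.49), and 15 also rose on plain totals and with ranks and levels from separate parts of the UMIs. S100a4, a calcium-binding partner of non-muscle myosin, had 522 and 502 CPM in KO members and 254 and 251 CPM in KO bottom cells. The WT libraries had 599 and 513 CPM in members and 269 and 209 CPM in bottom cells. Members were well above bottom cells in each library, with a log2 change of 1.12 ± 0.04 (adjusted p = 5.83e-22). Anxa2 and Anxa1, phospholipid-binding annexins, rose by 1.03 ± 0.04 and 1.00 ± 0.04, and S100a6 and S100a10, relatives of S100a4 of which S100a10 binds annexin A2, rose by 0.88 ± 0.04 and 0.85 ± 0.06. Lgals3, galectin-3, had 81.6 and 73.1 CPM in KO members against 30.9 and 27.7 CPM in KO bottom cells. It had 86.5 and 58.4 CPM in WT members against 21.3 and 21.5 CPM in WT bottom cells. This rise of 1.55 ± 0.07 (adjusted p = 9.72e-19) was not shared by the other galectins, of which 5 more passed the filter, 1 was called lower and 4 were not called.

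Among the 15 largest rises of genes with at least 50 CPM, the first was Igfbp2, a secreted protein that binds insulin-like growth factors. Igfbp2 had 50 and 44.4 CPM in KO members and 7.33 and 9.79 CPM in KO bottom cells. In WT it had 129 and 135 CPM in members and 32.6 and 32.3 CPM in bottom cells. Members were above bottom cells within both genotypes, with a log2 change of 2.25 ± 0.07 (adjusted p = 1.54e-22). Ckb, the brain-type creatine kinase that buffers ATP, had 1093 and 1042 CPM in KO members and 449.8 and 413 CPM in KO bottom cells. The WT libraries had 659 and 689 CPM in members and 284 and 306 CPM in bottom cells. The rise of 1.25 ± 0.04 (adjusted p = 1.23e-23) was close to even across the libraries. Foxs1, a forkhead transcription factor of perivascular cells, rose by 0.91 ± 0.06. Prss23, a secreted serine protease, rose by 0.84 ± 0.04, as did Uchl1, a ubiquitin hydrolase abundant in neurons, by 0.84 ± 0.05. The tubulins Tuba1a, Tubb2a and Tubb4b rose by 0.94, 0.91 and 0.85. For Tuba1a and Tubb2a, 56.6% and 47.4% of the 31-base words near the transcript end also occur in other tubulins, so reads could be split among copies, against 1.06% for Tubb4b.

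Energy metabolism and ribosomal genes rose in small, even steps. Of 36 nuclear genes of the respiratory chain, 35 rose and none fell (median 0.41), led by Atp5g1, a subunit of the ATP synthase ring, at 0.61 ± 0.04, and Uqcrb, a subunit of complex III, at 0.52 ± 0.04. The 13 genes of the mitochondrial genome did not follow, with none higher and 5 lower (median -0.08). Of 35 ribosomal protein genes, 33 rose (median 0.23), of which 19 rose and 2 fell on plain totals (median 0.07). Glycolysis genes had 12 of 18 higher and 1 lower (median 0.34). Gapdh, a glycolytic dehydrogenase, had 1222 and 1064 CPM in KO members against 754 and 672 CPM in KO bottom cells, and 903 and 896 CPM in WT members against 605 and 572 CPM in WT bottom cells. Endoplasmic reticulum chaperones had 11 of 18 higher and 2 lower (median 0.20), a split of 5 higher and 4 lower on plain totals.

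Interferon-stimulated and antigen-presentation genes had 8 of 24 higher and 1 lower (median 0.21), with Ifi27 up by 0.53 ± 0.04 and B2m, the light chain of MHC class I, up by 0.43 ± 0.04. Immediate early and dissociation stress genes went both ways, 11 higher and 8 lower of 28 (median -0.02), and heat shock genes had 8 higher and 3 lower of 16 (median 0.07). Nfkbia, an inhibitor of NF-kappaB, rose by 0.78 ± 0.06, whereas Btg2 and Atf3, both early response genes, fell by 0.47 and 0.36 on the log2 scale. These genes thus had no common direction.

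Notch pathway genes were lower in members. Of 11 tested, 9 fell and none rose (median -0.57), beside 21.2% of all genes called lower, and 5 fell when KO 1 was left out. Notch3, the main Notch receptor of arterial smooth muscle, had 28.1 and 27.0 CPM in KO members and 47.0 and 42.1 CPM in KO bottom cells. In WT it had 25.1 and 15 CPM in members and 37.2 and 31.9 CPM in bottom cells. Members were lower in all 4 libraries (log2 change -0.76 ± 0.08, adjusted p = 8.29e-10). Hey2 and Heyl, transcriptional repressors induced by Notch, fell by 0.61 ± 0.07 and 0.56 ± 0.06 on the log2 scale. Pericyte markers, among which Notch3 also stands, had 2 of 7 higher and 3 lower.

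TGF-beta and BMP signalling genes also leaned lower, beside 21.2% of all genes called lower. Of 25 tested ligands, receptors and SMADs, 2 rose and 12 fell (median -0.24). Tgfbr2, the type II TGF-beta receptor, had 42.4 and 47.3 CPM in KO members and 54.3 and 53.8 CPM in KO bottom cells. The WT libraries had 44.2 and 35.3 CPM in members and 66.6 and 55.7 CPM in bottom cells. It fell by 0.45 ± 0.06 on the log2 scale (adjusted p = 1.74e-07). Tgfbr1, the type I receptor, had 71.6 and 75.0 CPM in KO members, 77.0 and 80.0 CPM in WT members, 77.1 and 74.5 CPM in KO bottom cells and 77.3 and 77.5 CPM in WT bottom cells, with no call (log2 change -0.01 ± 0.05, adjusted p = 0.857). Because the assay tags the 3′ end of a transcript and not the floxed exons, these levels do not check the deletion. Bmpr2, the type II BMP receptor, and Smad4, the shared SMAD, fell by 0.40 ± 0.05 and 0.47 ± 0.06. Of 20 TGF-beta target genes, 3 rose and 12 fell (median -0.21). Nox4, an oxidase that makes hydrogen peroxide, fell by 0.47 ± 0.05, and Fn1, fibronectin, rose by 0.48 ± 0.05.

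Receptors and ion channels of vascular smooth muscle had 5 of 31 higher and 15 lower (median -0.21). Abcc9, the sulphonylurea receptor of the ATP-sensitive potassium channel, fell by 0.51 ± 0.04 and Gucy1a1, a subunit of the nitric oxide receptor, by 0.42 ± 0.04 on the log2 scale. Ednra, the endothelin A receptor, had 5.35 and 9.89 CPM in KO members and 4.05 and 3.75 CPM in WT members. In bottom cells it had 15 and 26.2 CPM in KO and 5.23 and 18.0 CPM in WT. The fall of 1.56 ± 0.16 became 0.90 without WT 2, so its size leans on that library.

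The largest falls of genes with at least 50 CPM were of a different kind from the rises. Gpc6, a cell-surface heparan sulphate proteoglycan, had 92.8 and 84.1 CPM in KO members and 170.4 and 153 CPM in KO bottom cells. In WT it had 75.3 and 72.9 CPM in members and 177 and 162 CPM in bottom cells. Its log2 change of -1.03 ± 0.05 (adjusted p = 6.77e-19) was the lowest of the 15 falls. Epas1, the hypoxia-inducible factor HIF-2 alpha, fell by 0.75 ± 0.05, Alcam, a cell adhesion molecule, by 0.75 ± 0.05, and Etv1, an ETS transcription factor, by 0.66 ± 0.06. Syne1, the giant nesprin-1 that ties the nucleus to the cytoskeleton, fell by 0.68 ± 0.04. Others were Specc1, Gxylt2, Map4k4, Kmt2c, Sash1, Nrip1, Phactr1, Ptprd, Sh3pxd2a and Tob2, whose log2 changes lay between -0.82 and -0.62, and Phactr1, a regulator of phosphatase and actin, fell by 0.38 without WT 2.

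Matrix genes showed no single direction, beside 23% of all genes called higher and 21.2% called lower. Collagens had 5 of 14 higher and 3 lower (median 0.08), elastic fibre genes 5 of 19 higher and 7 lower (median -0.03), basement membrane genes 3 of 16 higher and 5 lower (median -0.05), and proteoglycans and matricellular genes 6 of 24 higher and 10 lower (median -0.15). Mfap5, a microfibril glycoprotein, and Efemp2, fibulin-4, which guides elastin assembly, rose by 0.43 and 0.50. Eln itself was lower on average and is described with the difference between genotypes. Integrins and focal adhesion genes were even, 9 of 30 higher and 9 lower (median 0.02), with Itga5, the fibronectin receptor subunit, up by 0.62 ± 0.05. Modulated smooth muscle genes had 7 of 20 higher and 8 lower (median -0.36): Vim, vimentin, rose by 0.64 ± 0.04 and Lgals3 rose, while the fibroblast-marker gene Dcn fell.

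Sets were also taken by each ranking gene alone. Ranking by Actg2 alone gave 935 higher and 686 lower genes of 12179 (7.68% and 5.63%), and ranking by Lgals1 alone gave 3173 higher and 2896 lower of 12269 (25.9% and 23.6%). All bottom cells by Actg2 alone had 0 UMIs of it, and ties among such cells were taken in the order of their barcodes. Des rose by 1.34 ± 0.07 by Actg2, and its averaged change by Lgals1 was 0.14 ± 0.05. That average joins opposite directions. By Lgals1, Des had 217 and 186 CPM (library totals) in top cells of KO 1 and KO 2, against 138 and 162 CPM in bottom cells. In WT 1 and WT 2 it had 93.1 and 79.3 CPM in top cells, against 150 and 104 CPM in bottom cells. Ckb rose by 1.04 by Actg2 and by 0.75 by Lgals1, and Igfbp2 by 1.18 and 2.44, so these 2 rose with either gene. Lgals3, S100a4, S100a6 and Anxa1 had log2 changes of 0.021, -0.056, 0.034 and 0.099 by Actg2, none of them called, and of 2.43, 1.84, 1.34 and 1.47 by Lgals1. Of the 16 S100 and annexin genes 7 were higher and 1 lower by Actg2, and 15 were higher by Lgals1. Respiratory chain genes were higher in 33 and 35 of 36. Ribosomal protein genes were higher in 5 and 33 of 35, and contractile genes had 21 higher and 1 lower of 34 by Actg2 and 16 higher and 13 lower by Lgals1. These are values of overlapping sets of cells set side by side, and the difference between them was not tested.

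**Figure D3:**
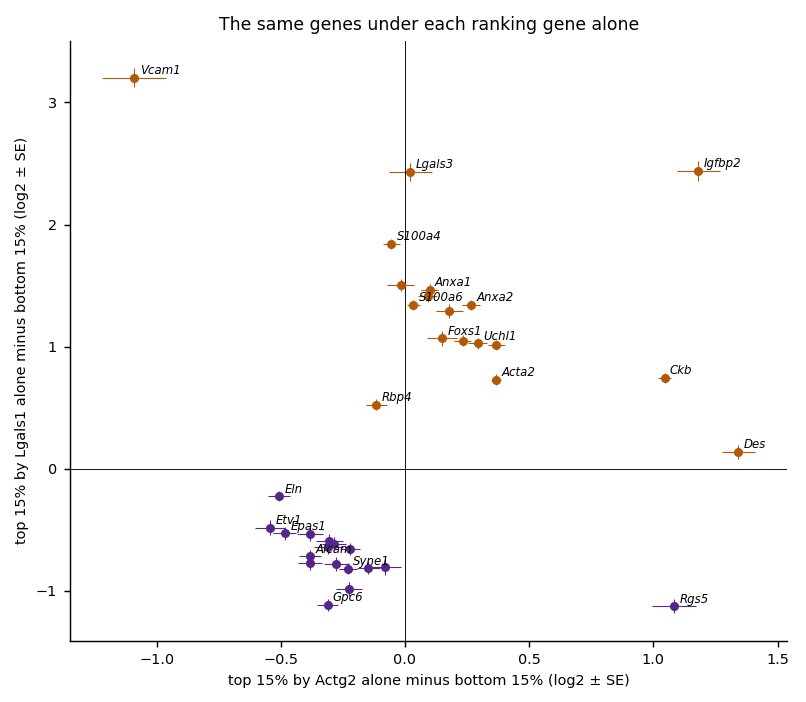
Log2 change ± SE of the 15 largest rises, the 15 largest falls and 5 further genes between the top and the bottom 15% of cells ranked by Actg2 alone (horizontal axis) and by Lgals1 alone (vertical axis), over 4 libraries; orange points are above 0 and purple points below 0 on the vertical axis, and 20 genes are labelled. Des, Ckb and Igfbp2 lie to the right, Lgals3, S100a4, S100a6 and Anxa1 lie near 0 on the horizontal axis, and Vcam1 and Rgs5 lie in opposite corners.

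A pair of genes moved in opposite directions with the ranking genes. Vcam1, a cytokine-induced adhesion molecule, had 14.5, 7.10, 4.67 and 20.5 CPM (library totals) in the top cells by Actg2 of KO 1, KO 2, WT 1 and WT 2, against 44.2, 39.9, 12.5 and 21.5 CPM in their bottom cells. By Lgals1 it had 86.3, 83.4, 107 and 79.3 CPM in top cells, against 20.4, 19.2, 5.89 and 5.95 CPM in bottom cells. Its log2 change was -1.09 ± 0.13 by Actg2 (adjusted p = 1.02e-07) and 3.20 ± 0.08 by Lgals1. With both genes it was 1.37 ± 0.16, and 0.74 without WT 1. Rgs5, a regulator of G protein signalling that was picked after its values were seen, had 149, 257, 452 and 515 CPM in the top cells by Actg2 and 102, 223, 74.8 and 226 CPM in their bottom cells. By Lgals1 it had 74.3, 167, 181 and 187 CPM in top cells and 145, 431, 355 and 654 CPM in bottom cells. Top cells were higher by Actg2 and lower by Lgals1 in every library. In the members chosen by both genes, Rgs5 had 113, 247, 269 and 289 CPM, against 130.5, 382, 123 and 489.9 CPM in bottom cells. It was higher in members of WT 1 and lower in members of the other 3 libraries, and the averaged change had no call (log2 change -0.05 ± 0.12, adjusted p = 0.764).

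Levels across 10 equal steps of the summed rank showed how gradual the changes were. In KO 1, Acta2 had 20027 CPM (library totals) in the lowest step, 24475 CPM in the fifth and 31465 CPM in the highest. S100a6 had 1778, 2495 and 3248 CPM at the same places. In all 4 libraries both were lowest in the lowest step and highest in the highest step, with small reversals between neighbouring steps, whereas Eln in KO was highest in the lowest step. Eln stood at 732 CPM in the lowest step of KO 1 and between 242 and 344 CPM in the other 9, and at 488 CPM in the lowest step of KO 2 and between 179 and 278 CPM in the other 9. In WT 1 it stood between 2468 and 2887 CPM over all 10.

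**Figure D4:**
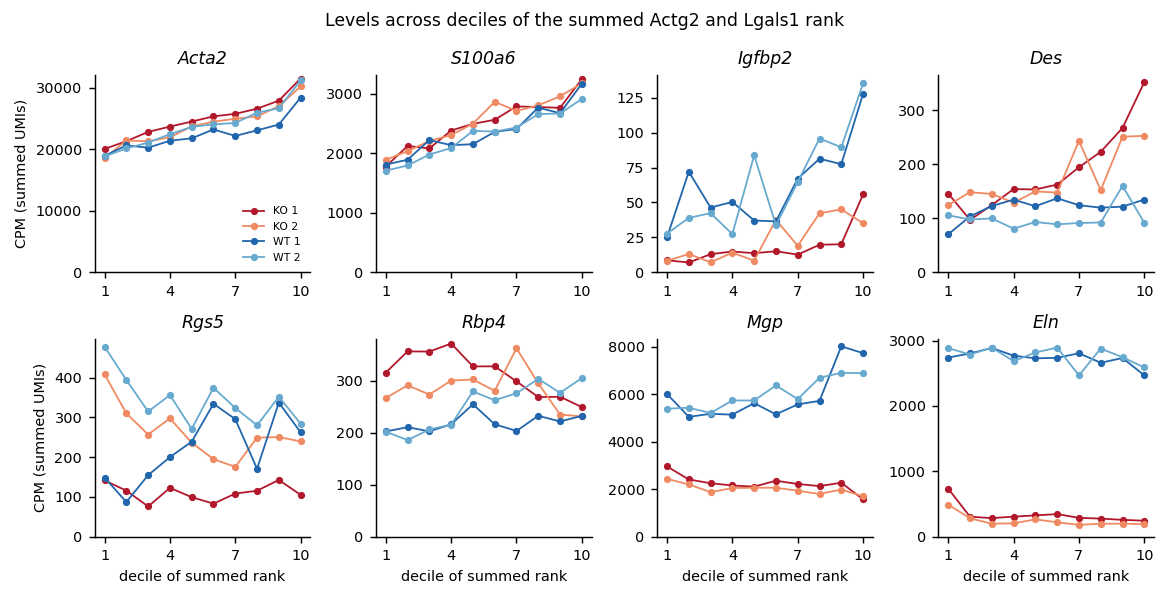
Levels in CPM (UMIs summed over cells per library total, vertical axes from 0) of 8 genes across 10 equal steps of the summed Actg2 and Lgals1 rank, from the lowest (1) to the highest (10), with 1 line per library. Acta2 and S100a6 are lowest in the first and highest in the last step of all 4 libraries, Des is higher in the last step of KO 1 and KO 2 (352 and 253 CPM) than in the first (146 and 125 CPM) but not in WT 2 (91.8 against 106 CPM), Mgp and Eln are higher in WT throughout, and Eln in KO is highest in the lowest step.

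Few genes were called as changing differently from bottom to member cells in the genotypes. In KO 2095 genes were higher and 1726 lower in members (31.1% of 12272 called), and in WT 2170 were higher and 1746 lower (31.9%). Of the 2698 genes called in both, 2687 went the same way. The count in KO was 1913 without KO 1 and 2161 without KO 2, and that in WT was 2204 without WT 2. A test of the difference itself called 52 genes (0.424%), 13 with a higher and 39 with a lower change in KO (0.106% and 0.318%). That count was 34 without KO 1, 95 without WT 1, 143 without WT 2 and 30 without cells carrying 3 or more markers of another type. Acta2 changed by 0.76 ± 0.06 in KO and by 0.74 ± 0.06 in WT, and Igfbp2, Ckb, S100a4 and Lgals3 were likewise not called as different.

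**Figure D5:**
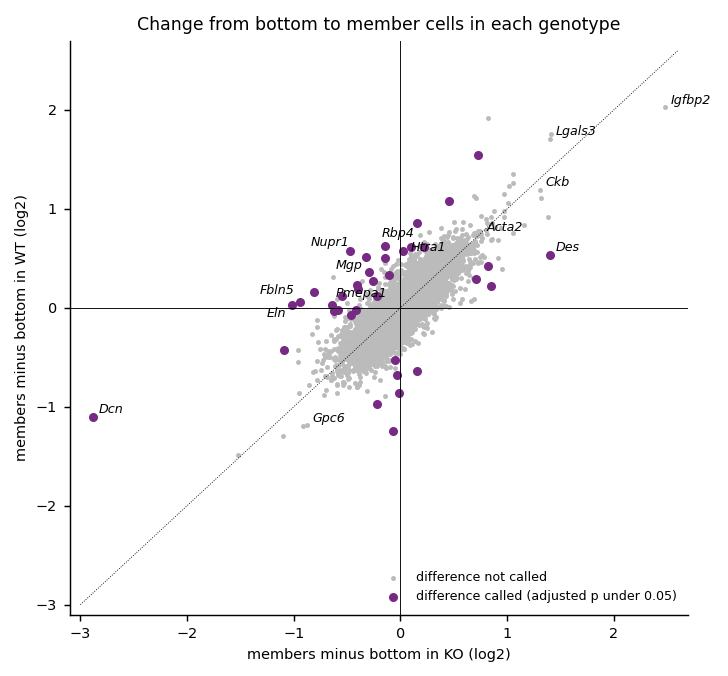
Log2 change of member over bottom cells in KO (horizontal axis) and in WT (vertical axis) for tested genes averaging 20 CPM or more, each point 1 gene; purple points are called as different between the genotypes and the dotted line marks equal change. Most genes lie along the line, Eln, Fbln5 and Pmepa1 lie to the left of 0 at about 0 on the vertical axis, and Des lies to the right of the line.

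The genes with the smallest p included elastic fibre genes and TGF-beta targets. Eln, elastin, had 252 and 196 CPM in KO members and 549 and 365 CPM in KO bottom cells. The WT libraries had 2734 and 2836 CPM in members and 2689.9 and 2759 CPM in bottom cells. Members were lower in both KO libraries and level with bottom cells in WT, a difference of -1.05 ± 0.08 on the log2 scale (adjusted p = 5.19e-11). Removing cells with 3 or more markers of another type left -0.67, and removing cells with a tdTomato UMI left -0.84, both still called. Fbln5, fibulin-5, which anchors elastin to cells, had 70.4 and 83.4 CPM in KO members and 133 and 163 CPM in KO bottom cells, against 507 and 564 CPM in WT members and 474 and 551 CPM in WT bottom cells (difference -1.01 ± 0.08, adjusted p = 5.01e-10). Pmepa1, a TGF-beta-induced feedback inhibitor, had 122 and 133 CPM in KO members and 183 and 216 CPM in KO bottom cells, and 1099 and 1239 CPM in WT members against 1129.6 and 1154 CPM in WT bottom cells (difference -0.67 ± 0.08, adjusted p = 2.93e-06). As for Eln, the lowest of 10 equal steps of the summed rank was highest in KO for Fbln5 and Pmepa1. In KO 1 and KO 2, Fbln5 had 168 and 207 CPM (library totals) there, against 63.4 to 96.3 and 75.1 to 123 CPM in the other steps. Pmepa1 had 212 and 266 CPM there, against 112 to 161 and 125 to 164 CPM. Of 19 elastic fibre genes, 4 were lower in this test and none higher, and of 20 TGF-beta target genes 3 were lower, with Eln and Ltbp2 on both lists and Fbln2 and Fbln5 on the first. Other lists with calls in this test included modulated smooth muscle genes with 3 of 20 lower, chondrogenic and osteogenic genes with 2 of 11 lower, endothelial markers with 2 of 9 lower, and cardiomyocyte markers with 2 of 4 higher.

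Mgp and Nupr1 changed in opposite directions in the genotypes. Mgp, the matrix inhibitor of calcification, had 1946 and 1893 CPM in KO members and 2589.8 and 2210.2 CPM in KO bottom cells. In WT it had 8237 and 7021 CPM in members and 5348 and 5281 CPM in bottom cells. Members were lower in both KO libraries and higher in both WT libraries (difference -0.84 ± 0.08, adjusted p = 1.08e-08). Nupr1, a small stress-induced chromatin protein, had 65.4 and 71.1 CPM in KO members and 86.6 and 103 CPM in KO bottom cells, and 910.5 and 1013 CPM in WT members against 651 and 644 CPM in WT bottom cells (difference -1.04 ± 0.09, adjusted p = 1.19e-09). In KO, the lowest of 10 equal steps of the summed rank stood apart for Nupr1. It had 101 and 135 CPM (library totals) there in KO 1 and KO 2, against 59.1 to 87.1 and 58.4 to 84.6 CPM in the other steps. In KO 2 the highest step, at 71.1 CPM, lay within that range. Rbp4 rose in WT and was not called in KO (adjusted p = 0.105), and its changes differed between the genotypes (difference -0.77 ± 0.10, adjusted p = 1.06e-05), or -0.50 without WT 2. Htra1, a secreted protease that cleaves TGF-beta family ligands and matrix, had 168 and 191 CPM in KO members and 171 and 180.2 CPM in KO bottom cells, against 411 and 511 CPM in WT members and 262 and 358 CPM in WT bottom cells (difference -0.55 ± 0.08, adjusted p = 0.000138).

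Des was the one of the 10 genes with the smallest p whose change was higher in KO, by 0.87 ± 0.11 on the log2 scale (adjusted p = 4.07e-06), with changes of 1.40 ± 0.07 in KO and 0.53 ± 0.08 in WT. Dcn, decorin, a collagen-binding proteoglycan and fibroblast marker, had 9.52 and 8.48 CPM in KO members and 65.5 and 68.4 CPM in KO bottom cells, against 6.56 and 8.47 CPM in WT members and 21.1 and 13.2 CPM in WT bottom cells. The sets of members were alike and the KO bottom cells stood apart (difference -1.78 ± 0.25, adjusted p = 3.98e-05). Without cells carrying 3 or more markers of another type the difference in Dcn was -0.62 and not called (adjusted p = 0.698). Dcn is itself among the fibroblast markers that chose those cells, so part of that shrinkage is built in. Without the 5% of cells with the most UMIs the difference in Dcn was -1.16 and not called. Frzb, a secreted Wnt antagonist, had 5.35 and 9.61 CPM in KO members and 25.8 and 35.0 CPM in KO bottom cells, against 11.6 and 16.5 CPM in WT members and 8.45 and 26.8 CPM in WT bottom cells (difference -1.67 ± 0.25, adjusted p = 0.000108, and -2.51 without WT 2).

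Within members, KO and WT differed in 1431 of 11783 genes (12.1%), 586 higher (4.97%) and 845 lower (7.17%) in KO, and within bottom cells in 1420 of 11986 (11.8%), 623 higher (5.2%) and 797 lower (6.65%). The count within bottom cells was 791 without KO 1. The ranking genes are given as a description, with no test. Actg2 had 1768 ± 80.1 CPM in KO members and 1022 ± 74.7 CPM in WT members (mean ± SD, 2 libraries each), and Lgals1 had 3972 ± 439 CPM in KO members and 3556 ± 24.9 CPM in WT members. Des had 316 ± 76.0 CPM in KO members and 132 ± 4.22 CPM in WT members (1.26 ± 0.13, adjusted p = 0.000101), against a log2 difference of 0.39 (adjusted p = 0.0139) in bottom cells.

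The other large rises in KO members were also present in bottom cells. Itih4, an acute-phase plasma protein bound to hyaluronan-linked complexes, had 945 ± 205 CPM in KO members and 147 ± 13.6 CPM in WT members, with log2 differences of 2.68 in members and 2.33 in bottom cells. Tnnt2, the cardiac troponin T, had 428 ± 141 CPM in KO members and 119 ± 16.7 CPM in WT members (1.84 ± 0.18, adjusted p = 5.78e-05, and 1.08 in bottom cells). Ifitm3, an interferon-induced membrane protein, had 589 ± 122 CPM in KO members and 205 ± 5.18 CPM in WT members (1.52 in members and 1.54 in bottom cells). Cidea, a lipid droplet protein, Dctn3, a dynactin subunit, Gne, the first enzyme of sialic acid synthesis, and Tubb6, a tubulin, completed the 8 largest rises, with log2 differences of 1.52, 1.31, 1.21 and 1.20 in members and 1.57, 1.36, 0.78 and 0.97 in bottom cells.

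The falls were larger. Col15a1, a basement membrane collagen, had 5.83 and 2.83 CPM in KO members and 326 and 315 CPM in WT members (log2 difference -6.17 ± 0.17, adjusted p = 1.81e-09, and -5.59 in bottom cells). Mfap4, a microfibril-associated glycoprotein, had 57.8 ± 4.59 CPM in KO members and 1189 ± 194 CPM in WT members (-4.37 in members and -3.86 in bottom cells). Eln had 224 ± 40.0 CPM in KO members and 2785 ± 71.9 CPM in WT members (-3.64 in members and -2.58 in bottom cells), and Nupr1 had 68.3 ± 3.99 CPM in KO members and 962 ± 72.7 CPM in WT members (-3.82 and -2.78). Itgbl1, an integrin beta-like secreted protein, and Mylk4, a myosin light chain kinase family member, had log2 differences of -2.79 and -2.68 in members and -2.16 and -2.80 in bottom cells. Of 19 elastic fibre genes, 13 fell in KO members and none rose (median -0.72). Of 20 TGF-beta target genes 14 fell and none rose (median -1.31), and of 14 collagens 8 fell and 1 rose (median -0.71). The same lists had 9, 14 and 9 falls and 2, 1 and 0 rises in bottom cells (medians -0.44, -0.95 and -0.68). Contractile genes had 11 of 34 higher and 6 lower in KO members (median 0.16). Interferon-stimulated and antigen-presentation genes had 12 of 22 higher and 1 lower in KO members (median 0.92). In bottom cells the contractile list had 6 higher and 7 lower (median 0.05). The interferon list had 12 of 22 higher there and none lower (median 0.92). Of all genes, 4.97% rose and 7.17% fell in members, and 5.2% and 6.65% did so in bottom cells. Apart from the contractile list, these lists thus leaned the same way in members and bottom cells.

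Clusters were formed without the 2 ranking genes and are given by number and by their leading genes, since none was named. Each held some members, though clusters 2 and 9 held none from WT. Of 9 clusters, cluster 4, led by Vcam1 and Emp1, was among those with high shares of members, at 27.8% and 26.0% of its cells in KO 1 and KO 2 and 29.0% and 27.9% in WT 1 and WT 2. In cluster 1, led by Adm and Rbp4, they made up 20.1% and 20.4% in the KO libraries and 22.1% and 23.0% in the WT libraries. Cluster 7, led by AY036118 and Ifi27l2a and with mean UMI counts of 6334 to 6695 per cell, the lowest of the 9, held 29.0% and 25% in KO and 14.5% and 21.9% in WT. Shares were low in cluster 6, led by Spon1, Gria1 and Notch3, at 4.88% and 7.46% in KO and 6.06% and 6.27% in WT. They were also low in cluster 2, led by C1qa and C1qb, at 2.04% and 4.55% in KO and 0% and 0% in WT, of 49, 44, 14 and 22 cells. Kept cells with at least 3 macrophage markers numbered only 2, 0, 0 and 1 in KO 1, KO 2, WT 1 and WT 2. The leading genes of cluster 2 thus do not give the type of most of its cells. Bottom cells made up 42.9%, 40.9%, 57.1% and 50% of cluster 2, and 24.4%, 22.7%, 26.5% and 24.5% of cluster 6. Shares of members in cluster 3, led by Dcn, Lum and Corin, were 15.5% and 11.6% in KO and 6.97% and 7.62% in WT. In cluster 5, led by Acan and Pdzrn4, they were 12.5% and 11.6% in KO and 12.2% and 10.9% in WT. In cluster 8, led by Adamtsl1 and Dlx6, they were 9.6% and 15.2% in KO and 19.5% and 13.6% in WT. Cluster 9, led by Rsad2 and Ifit1, held 5 members of 32 cells in KO 1 and 2 of 8 in KO 2. It had 0 members of 3 cells in WT 1 and no cells of WT 2. The genes that formed the clusters are those compared above, so these shares are a description and no separate evidence.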

How the data were processed

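Droplet-based 3′ single-cell RNA libraries (10x Genomics) of sorted aortic smooth muscle cells were compared, 2 KO and 2 WT. The authors deposited UMI counts per gene and barcode, for which the file headers name Cell Ranger 5.0.1 as the software, and mm10 and Seurat 4.0 stand in the submitters' processing notes. No doublet caller was run and no doublets were removed here; the alternative without the 5% of cells with the most UMIs bears on them. Counts were summed per library over members and over bottom cells, giving 8 sums, and genes passing edgeR's expression filter were fitted with edgeR 4.0.16 (R 4.3.3, TMM factors, quasi-likelihood test, Benjamini-Hochberg adjustment, adjusted p below 0.05 called), with library as a block and separate member terms for KO and WT. KO and WT were compared within members and within bottom cells by separate fits. The other alternatives were DESeq2 1.42.0, other scalings, filters, shares, rankings and cell exclusions, and leaving out each library. Clusters were formed with scanpy 1.11.5 without Actg2 and Lgals1. Gene positions and lengths come from GENCODE M21 on GRCm38. The fits were tested on simulated counts.

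The members and the 45 gene lists were chosen with earlier results of these data known. Named genes are the 15 largest rises and the 15 largest falls averaging 50 CPM or more, the 10 smallest p-values of the difference between KO and WT changes, the 8 largest rises and 8 largest falls of KO over WT within members, up to 3 per list, and fixed genes. Rgs5, Tagln, Ly6a, Cdh5, Tek, Fbln2, Ltbp2, eGFP and tdTomato were named after their values were seen. A gene that the rule names is not reported here. Replicate numbers did not pair the samples. All summed sets held at least 4797542 UMIs. The deposited barcodes numbered 4504, 3858, 2769 and 3565 in KO 1, KO 2, WT 1 and WT 2, where the labels state 4031, 3246, 2151 and 3000 cells after the authors' filter.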

Additional observations from a re-analysis of the deposited data

Results flagged for a closer look

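The test of the difference between the KO change and the WT change from bottom to member cells passed the threshold for 52 genes. The 10 with the smallest p are given here. On the log2 scale, the KO change minus the WT change was -1.05 for Eln, -1.01 for Fbln5, -1.04 for Nupr1, -0.84 for Mgp, -0.67 for Pmepa1, 0.87 for Des, -0.77 for Rbp4, -1.78 for Dcn, -1.67 for Frzb and -0.55 for Htra1. Bottom cells of the KO libraries held 19 and 18 cells with at least 3 fibroblast markers and 21 and 17 cells with a tdTomato UMI. Bottom cells of the WT libraries held 6 and 7 cells with at least 3 fibroblast markers and none with a tdTomato UMI. Without cells of at least 3 markers of another type the difference was -0.67 for Eln, -0.84 for Fbln5, -0.76 for Nupr1 and -0.62 for Dcn, the last not called. Dcn is itself among the markers that chose the cells removed. Without cells with a tdTomato UMI all 10 were called.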

How the results depend on the processing

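Of 3479 comparisons of a named gene's value with an alternative, 3306 kept their direction and side of the threshold, 139 lost the call, 6 gained it and 28 reversed. The 5429 genes called between members and bottom cells became 1621 by Actg2 alone, 2009 without cells of other-type markers and 2051 with DESeq2, and lay between 4251 and 5063 without 1 library. In KO the count of 3821 became 2375 with ranks and levels from separate UMIs, 1034 by Actg2, 1214 without other-type markers, 988 with DESeq2 and 1809 with no replicate block, with 1913 to 4290 when 1 library was left out. In WT the count of 3916 became 2532, 710, 936, 1231 and 2264 under the same settings and 2204 to 3882 without 1 library. The 52 differences between KO and WT changes became 80 with 10% of cells, 116 by Actg2, 85 by Lgals1, 16 against all other cells, 14 without other-type markers, 30 without cells of 3 or more such markers (an alternative chosen after seeing the data), 8 with DESeq2, 30 with no filter, 22 at 20 CPM or more and 1 with no replicate block, and 34 to 143 without 1 library. KO against WT within members gave 490 without other-type markers and 809 with DESeq2 in place of 1431, and 1060 to 1438 without 1 library. Within bottom cells it gave 2878 against all other cells, 519 without other-type markers and 747 with DESeq2 in place of 1420, and 791 to 1286 without 1 library. The setting without other-type markers dropped every cell with 5 or more UMIs of those markers. In KO 1 and KO 2 it kept 1341 of 4162 and 1006 of 3414 cells. In WT 1 and WT 2 it kept 484 of 2316 and 558 of 3157 cells. Members then numbered 201, 151, 73 and 84, against 624, 512, 347 and 474. Without cells of 3 or more markers of another type, 5343 genes were called between members and bottom cells. The cause of the shifts in these counts was not tested.

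The setting with no replicate block left out the library term that the main fit held. It thus ignored that members and bottom cells came from the same libraries. The replicate number was no term of the main fit. Same-numbered KO and WT libraries did not deviate together (correlation -0.013). With the replicate number as a block, KO against WT gave 1896 called genes within members and 1913 within bottom cells.

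Reversed log2 values by Actg2 alone were S100a4 -0.056, S100a10 -0.017, Rbp4 -0.12, Col1a1 -0.17, Smad9 0.073, Nog 0.35, Clec11a -0.59, Atf3 0.044, B2m -0.037, Ifitm3 -0.042, Vcam1 -1.09, Kit 0.24, Ncam1 0.11 and Myh11 0.069. By Lgals1 alone they were Fabp4 0.051, Foxf1 -0.019 and the Dcn difference 0.68. Against all other cells they were Cdkn1a 0.050 and Cd14 -0.063, and with thinned ranks Cd14 -0.21. With separate UMIs it was Kit 0.054. Without other-type markers they were Actc1 -0.79, Tgfbr1 0.090 and the Dcn difference 0.0014. Tgfbr1 was 0.0010 without the 5% of cells with the most UMIs. Leaving out 1 library gave -0.039 to 0.019 for Tgfbr1, -0.17 to 1.05 for Cd14 and -3.44 to 0.058 for S100b.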

Other observations

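Gene lists not described above had the following counts between members and bottom cells, beside 23% of all tested genes called higher and 21.2% called lower. Regional transcription factors had 6 of 32 higher and 12 lower, BMP and ID target genes had 2 of 13 higher and 6 lower, and chondrogenic and osteogenic genes had 2 of 11 higher and 4 lower. Retinoid transport and synthesis genes had 5 of 10 higher and none lower, but 3 higher and 3 lower on plain totals. By genotype, 2 were higher and 2 lower in KO (median -0.09), and 5 higher and 1 lower in WT (median 0.22). Lipid handling genes had 3 of 16 higher and 4 lower, inflammatory genes 2 of 9 higher and 2 lower, and cell cycle genes 3 of 10 higher and 1 lower. Of 9 nuclear-retained and long noncoding RNAs, 4 were lower and none higher.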
